A study of Mus musculus with 12 samples.

Results

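The cells described here are the chemokine-high Langerhans cells (LCs) of mouse hind paw epidermis, that is, LCs that carried many transcripts of the chemokines Ccl3 and Ccl4. Among the cells of 12 libraries with 200 to 6000 detected genes and at most 5% mitochondrial UMIs, an LC was a cell with at least 1 UMI of Cd207 and at least 5 UMIs of Cd74, under 0.5% of its UMIs in Krt1, Krt10, Krt5 and Krt14, no UMI of Ccr7 and fewer than 2 UMIs over Mki67, Top2a, Pclaf and Birc5. A UMI is 1 counted transcript molecule. Of the 2510 LCs gated in this way, 93 held at least 5 UMIs of Ccl3 and Ccl4 together and were called chemokine-high, and the other 2417 were called chemokine-low. The chemokine-high LCs were 3.71% of the gated LCs (exact 95% binomial interval 3.00 to 4.52%, counting error only) and 93 of all 127755 cells that passed the limits on genes and mitochondrial UMIs.

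The 12 mice were wild-type C57BL/6J animals, 6 to 8 weeks old at the start, that ate a regular diet (RD, 11% fat) or a high-fat diet (HFD, 42% fat, Envigo TD88137) for 10 weeks and were 16 to 18 weeks old when sampled. Each combination of sex and diet had 3 mice, each mouse gave 1 library from glabrous hind paw skin, and no mouse received a drug. The skin lay in Dispase overnight in the cold. The peeled epidermis was then dissociated with TrypLE for 10 minutes at body temperature before loading on a 10x Genomics droplet instrument. The study compared the diets in each sex to learn how LCs take part in pain of diabetic neuropathy, for which the diet serves as the model.

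LCs are the dendritic cells of the epidermis. They take up antigen through receptors that include langerin, the product of Cd207, hold MHC class II molecules together with the invariant chain Cd74, and leave for the lymph node once they express the chemokine receptor Ccr7. Ccl3 and Ccl4, also known as MIP-1α and MIP-1β, are small secreted chemokines that attract monocytes, T cells and other leukocytes, and myeloid cells transcribe both within a short time of a stimulus. Both genes lie next to each other on chromosome 11, Ccl3 at chr11:83647844-83649355 on the minus strand and Ccl4 at chr11:83662584-83664683 on the plus strand (GRCm38).

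Between 134449247 and 194673581 UMIs were counted per library, and the 12 libraries held 140392 barcodes called as cells. The chemokine-high LCs had a median of 5297 UMIs and 1878 genes per cell, the chemokine-low LCs one of 5298 UMIs and 1997 genes, and mitochondrial UMIs made up 1.80% and 1.68% (medians). These medians pool the mice and do not show a matched depth. Within most mice the chemokine-high median was the higher, as with 6334.5 against 5253 UMIs in female RD replicate 2. In some it was the lower, as with 3784.5 against 4566.5 in male HFD replicate 3. Any pair of libraries shared 15 to 70 barcode sequences, and no chemokine-high barcode was a gated LC of another library as well. Transcripts linked to sex were where the labels put them in all 12 libraries. The headers of the male files name Cell Ranger 6.1.0 and those of the female files 7.2.0, so sex and counting software cannot be told apart. No doublet caller was run. No chemokine-high LC had more than 4072 genes, but a gene count alone cannot show mixed cells. One chemokine-high LC of male RD replicate 2 had 6035 UMIs, 1066 genes and 1 Cd207 UMI, where the median of that mouse was 2890.5 UMIs.

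Every library held chemokine-high LCs. There were 11, 10 and 9 in the male RD mice, 7, 6 and 6 in the male HFD mice, 8, 10 and 8 in the female RD mice, and 5, 8 and 5 in the female HFD mice. The sum of Ccl3 and Ccl4 ran from 5 to 64 UMIs per cell with a median of 10 and an upper quartile of 19. At the threshold, 16 gated LCs held exactly 5 UMIs and 20 held exactly 4. Of the chemokine-low LCs, 2240 (92.7%) held none at all. These counts chose the cells and are given as a description.

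Ccl4 gave most of the chemokine UMIs. Over the 93 cells there were 1075 UMIs of Ccl4 and 324 of Ccl3, more Ccl4 than Ccl3 in 76 cells and more Ccl3 in 17. Both transcripts were seen in 32 cells, Ccl4 without Ccl3 in 48 and Ccl3 without Ccl4 in 13. The balance differed among mice: for each Ccl3 UMI the chemokine-high LCs held 5.74, 11.4 and 17.3 Ccl4 UMIs in male RD mice, 3.39, 3.00 and 85 in male HFD mice, 0.691, 3.15 and 3.11 in female RD mice, and 2.43, 2.81 and 2.00 in female HFD mice. Female RD replicate 1 was the one mouse with more Ccl3 than Ccl4. It had 94 Ccl3 UMIs in 8 cells, and 1 of its cells held 36 of them, while the 85 of male HFD replicate 3 rests on 1 Ccl3 UMI.

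**Figure D1:**
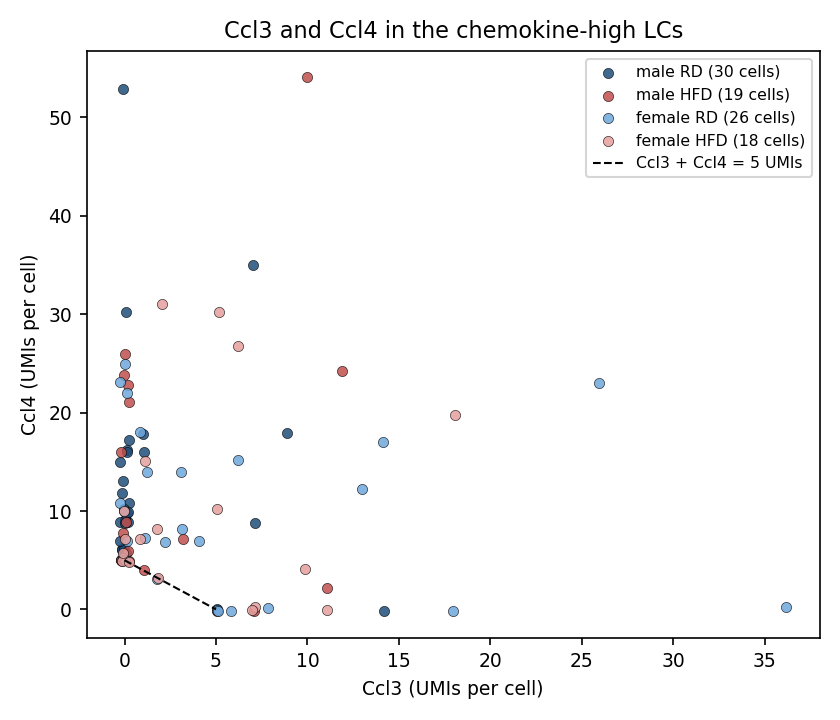
Each point is 1 of the 93 chemokine-high LCs, with its Ccl3 UMIs on the x axis and its Ccl4 UMIs on the y axis, jittered by up to 0.25 UMIs and coloured by group. The dashed line is the threshold of 5 UMIs for the sum, and 48 cells lie on the axis with no Ccl3.

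The 93 cells held 1399 of the 2659 Ccl3 and Ccl4 UMIs of all 127755 cells that passed the limits on genes and mitochondrial UMIs, or 52.6%. Only 141 of those cells held 5 or more, and 138 of these had the required Cd207 and Cd74. Of the LCs left out by the gate, 26 of 644 with more keratin UMIs (4.04%), 7 of 149 with Ccr7 (4.70%) and 12 of 198 with proliferation transcripts (6.06%) passed the same threshold. The keratin-bearing LCs had a median of 15898 UMIs per cell, against 5297.5 in the gated LCs, so their share is not at a matched depth. By comparison, 6 of 77916 cells classed as keratinocytes by their keratin UMIs alone passed (0.0077%, median 11329 UMIs), and that class can include keratin-bearing LCs. In epidermal T cells 0 of 400 passed, at a median of only 2188.5 UMIs, and a count of 0 allows a share of up to 0.75% for counting error alone. Of the 141 cells past the threshold, 3 lacked the required Cd207 and Cd74.

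Levels per mouse are given in CPM, the UMIs of a gene per 1000000 UMIs of all genes, summed over the cells of the class. Ccl4 stood between 1044 and 3659.5 CPM in the chemokine-high LCs of the 12 mice (median 1732) and between 5.01 and 42.2 in their chemokine-low LCs (median 18.7). Ccl3 stood between 43.1 and 1510.0 CPM in the chemokine-high LCs of the 12 mice (median 553) and between 5.37 and 16.8 in their chemokine-low LCs (median 8.49). The classes did not overlap for either gene. The rule chose the cells by the sum of both genes, so this is a description and no test. The lowest of these Ccl3 levels, that of male HFD replicate 3, rests on 1 Ccl3 UMI. The label of these cells also names Rgs1 and Pmaip1. Rgs1, a brake on signalling of chemokine receptors and other G protein-coupled receptors, had 2242 ± 1428 against 1151 ± 322 CPM (mean ± SD, n = 12) and was higher in the chemokine-high LCs of 9 of the 12 mice. It was lower there in female RD replicate 2, female HFD replicate 1 and female HFD replicate 2. Pmaip1, which codes for the pro-apoptotic protein Noxa, had 84.5 ± 107 against 48.1 ± 18.6 CPM (mean ± SD, n = 12) and was higher in only 6 of 12 mice, with 40 UMIs over all 93 cells. Rgs1 thus went with the label in most mice and Pmaip1 did not, and neither gene was tested because the label was chosen with them.

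The defining transcripts of LCs were present in all of them, as the gate required. Cd74 had 25184 ± 4171 against 24311 ± 2540.4 CPM (mean ± SD, n = 12), while Cd207 had 3517 ± 585 against 4779 ± 412 CPM (mean ± SD, n = 12) and was lower in the chemokine-high LCs of 12 of 12 mice. Both genes belong to the gate and were not tested. Over steps of the chemokine sum, pooled over mice, Cd207 stood at 4903 CPM in cells with 0, 4693 in those with 1 to 4, 4317 in those with 5 to 9 and 2933 in those with 10 or more. Rgs1 went from 1042 over 1420.3 and 1723 to 2474 across the same steps. Pmaip1 went from 41.5 over 52.2 and 47.3 to 97.1. Males gave 49 of the 93 chemokine-high and 897 of the 2417 chemokine-low LCs, so the pooled steps also hold differences between the sexes.

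**Figure D2:**
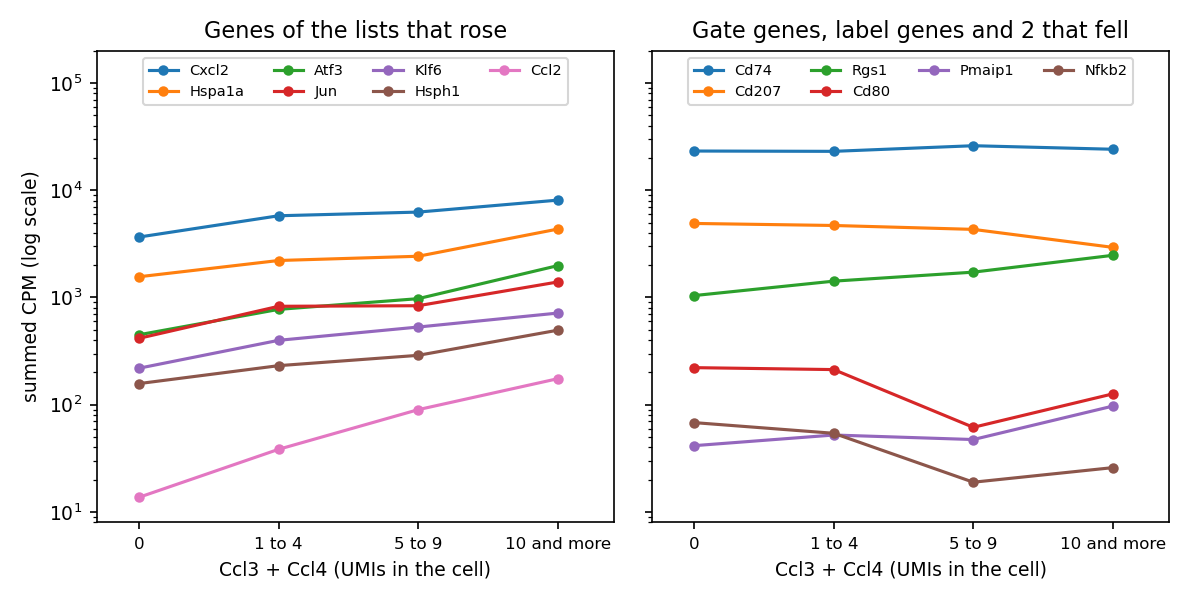
CPM summed over all gated LCs of the 12 mice (y axis, log scale) against the Ccl3 and Ccl4 UMIs of the cell (x axis, 2240, 177, 40 and 53 cells per step). The left panel shows genes that rose in the test by mouse, among which Cxcl2 went from 3661 to 8088 and Ccl2 from 13.7 to 174.8, and the right panel shows Cd74, Cd207, Rgs1, Pmaip1, Cd80 and Nfkb2.

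Beside Ccl3 and Ccl4, the chemokine-high LCs held more transcripts of the chemokines Ccl2 and Cxcl2, of heat shock genes such as Hspa1a and Hsph1, and of immediate-early genes such as Atf3, Klf6 and Dusp1. They held fewer of Scin, Cd80, Nfkb2 and Cdkn1a, though the calls of Nfkb2 and Cdkn1a were lost in DESeq2. No gene of the MHC class II or LC identity lists passed under both of the scalings described next. What other transcripts went with the chemokines was asked by comparing chemokine-high with chemokine-low LCs of the same mouse, on sums of UMIs, with edgeR's quasi-likelihood test and the mouse as a term. Genes of the gate and the label genes were left out of the test. With the planned minimum of 10 cells of each class, only male RD replicates 1 and 2 and female RD replicate 2 entered, and 47 of 5381 genes passed an adjusted p of 0.05 (0.873%), 30 higher (0.558%) and 17 lower (0.316%). All 12 mice entered with a minimum of 5 cells, a choice made after the cells per mouse were known, and 234 of 6361 genes passed (3.68%), 40 higher (0.629%) and 194 lower (3.05%). The scaling decided this split. The median log2 difference of all genes was -0.20 with TMM and 0.01 with DESeq2's size factors, which gave 127 genes (2%), 70 higher (1.1%) and 57 lower (0.896%). The log2 differences between the classes, though not those between diets or the interactions, are therefore given after subtraction of the TMM median, and a gene is said to have risen or fallen only where it passed with both scalings. By this measure 38 genes rose (0.597% of those tested) and 57 fell (0.896%). Of these, 2 were higher (Klf6 and Hspa8) and 18 lower in all 12 mice. The adjusted p-values quoted are those of edgeR with TMM over the 12 mice. They test the difference before that subtraction, not the printed one, so they are too small for the printed size of a fall and too large for that of a rise.

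Of 30 chemokine ligand genes beside Ccl3 and Ccl4, 29 were in the files and 7 passed the filter on low counts. Ccl2, Cxcl10, Ccl17 and Cxcl2 rose, and Ccl22, Cxcl1 and Cxcl16 did not pass both scalings. The median of the 7 was 0.75 above the median of all genes, but a gene seen mainly in the 93 cells could enter only if it was high there. Cxcl2, which draws neutrophils through Cxcr2, was the most abundant of them, with between 1773 and 14400.4 CPM in the chemokine-high LCs of the 12 mice (median 8724) and between 2284 and 5598 in their chemokine-low LCs (median 4099). Its difference was 0.75 ± 0.11 (SE), adjusted p = 0.000342. It was higher in 9 of 12 mice and lower in male HFD replicate 3, female RD replicate 2 and female HFD replicate 3, so the classes overlapped. Ccl2, the ligand of the monocyte receptor Ccr2, stood between 16.1 and 833 CPM in the chemokine-high LCs of the 12 mice (median 42.6) and between 1.87 and 87.3 in their chemokine-low LCs (median 14.5). Ccl2 had a difference of 2.54 ± 0.36 (SE), adjusted p = 2.32e-06, and it was higher in 10 of 12 mice. Only 17 of the 93 chemokine-high LCs (18.3%) and 4.30% of the chemokine-low LCs held a Ccl2 UMI. The limit of the filter may thus apply to the call of Ccl2 as well. In chemokine-high LCs the levels of Ccl2 were 506, 64.2 and 289 CPM in the male RD mice, 25, 833 and 43.1 in the male HFD mice, 16.1, 32.5 and 42.2 in the female RD mice and 22.1, 18.4 and 84.3 in the female HFD mice, with 73 UMIs in all, and the diets overlapped in each sex.

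Cxcl10, an interferon-inducible ligand of Cxcr3 on T cells, had 0 to 759 (median 27.3) CPM in chemokine-high and 0.936 to 116 (median 11.1) in chemokine-low LCs, a difference of 2.06 ± 0.35 (SE), adjusted p = 0.000162, and was higher in 7 of 12 mice. The chemokine-high LCs of 5 mice held none of it. Only 3.56% of the chemokine-low LCs held a Cxcl10 UMI, so the limit of the filter given above may apply to its call. Ccl17, a ligand of Ccr4, had a difference of 2.01 ± 0.48 (SE), adjusted p = 0.0162 on 45 UMIs, and was higher in only 5 of 12 mice. Only 4.01% of the chemokine-low LCs held a Ccl17 UMI, so the limit of the filter given above applies to this call. Its call was lost without female RD replicate 1 (1.23), without female RD replicate 3 (1.35) and in DESeq2 (0.17). The levels of Ccl17 in chemokine-high LCs were 321, 0 and 358 CPM in female RD mice and 0, 0 and 28.1 in female HFD mice. Ccl22, the other ligand of Ccr4, had a difference of 0.18 ± 0.27 (SE), adjusted p = 0.981. Cxcl1, a near relative of Cxcl2, had -0.36 ± 0.25 (SE), adjusted p = 0.225. Neither Ccl22 nor Cxcl1 kept its sign under every alternative, so no direction is given for them.

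Among 17 chemokine receptor genes 2 could be tested, and none passed both scalings. Ccrl2, an atypical receptor that binds chemerin, had a difference of 0.66 ± 0.19 (SE), adjusted p = 0.185, and its adjusted p was 0.0369 with DESeq2's size factors. Of 24 cytokine genes 10 were tested and none rose or fell in both. Tnf was higher in 10 of 12 mice at 407 ± 275 against 219 ± 53.9 CPM (mean ± SD, n = 12), with a difference of 0.77 ± 0.18 (SE), adjusted p = 0.0577 and an adjusted p of 0.0064 with DESeq2's size factors. Il1b, which codes for interleukin-1β, stood between 0 and 1581 CPM in the chemokine-high LCs of the 12 mice (median 393) and between 79 and 627 in their chemokine-low LCs (median 241). Its difference was 0.93 ± 0.27 (SE), adjusted p = 0.117. The sexes gave unlike values for Il1b: 2.18 over the female mice alone and -0.27 over the male mice alone. Tnf had 0.20 over the female mice alone and 1.32 over the male mice alone. These differences between the sexes were not tested.

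**Figure D3:**
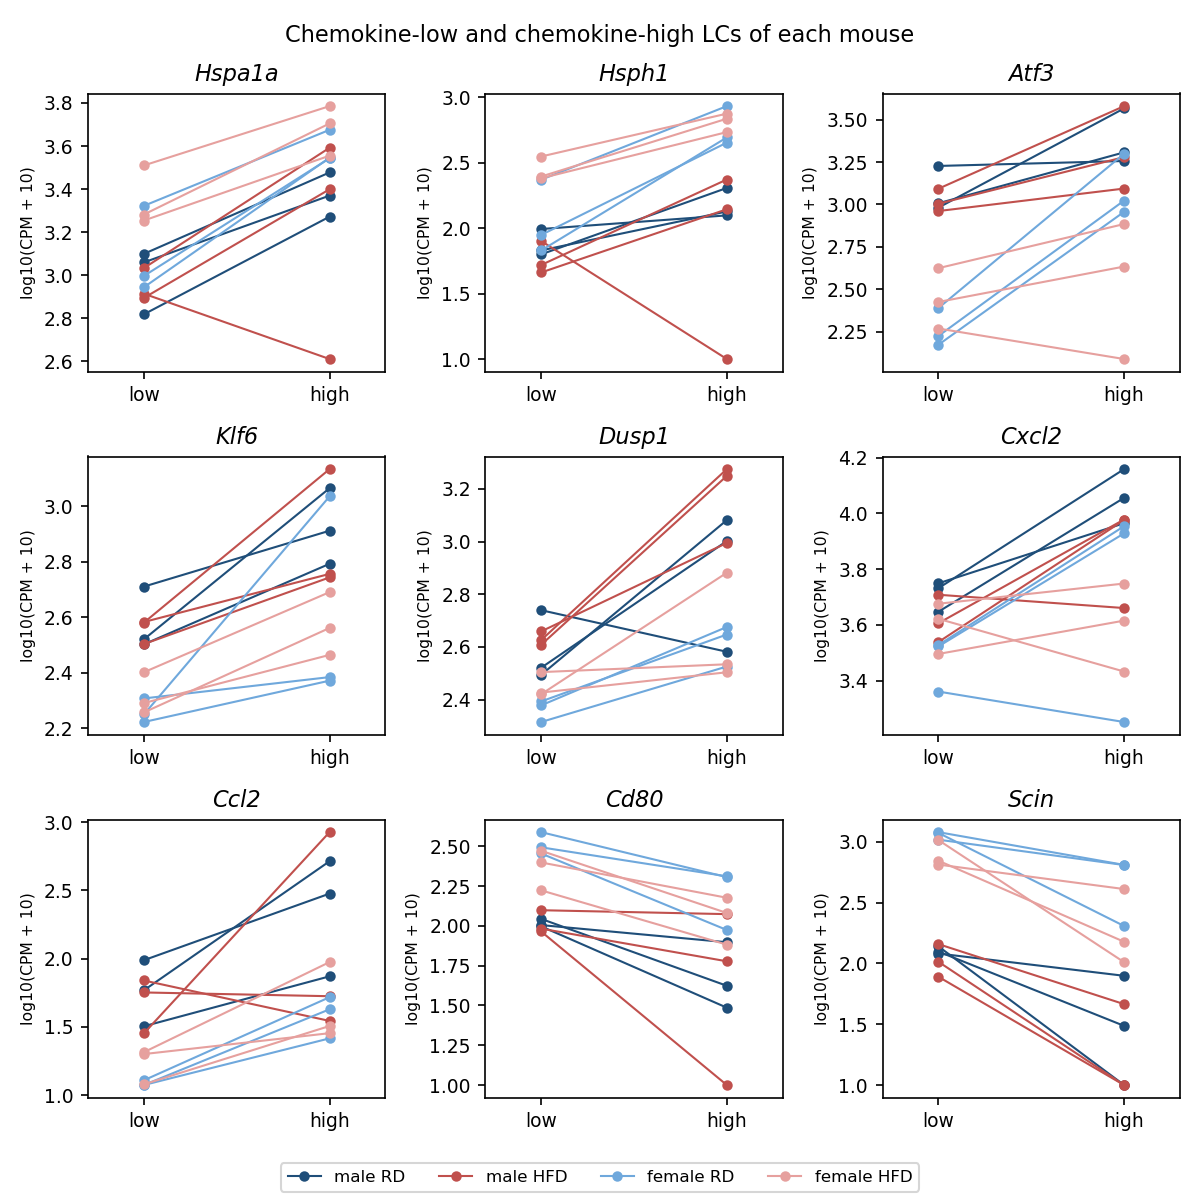
Levels of 9 genes in the chemokine-low and chemokine-high LCs of each mouse, joined by a line and coloured by group; the y axis is log10 of CPM plus 10. Hspa1a, Hsph1, Atf3 and Dusp1 were higher in the chemokine-high LCs of 11 of 12 mice and Klf6 in 12, while Cd80 and Scin were lower in 12.

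Among heat shock genes 6 rose, with Hspa1a and Hspa1b each counted, where 0.597% of all genes tested rose. This list, like all others here, was chosen with earlier results of these data known, so its counts are no independent evidence. The list held 15 chaperone genes, all tested, none fell, and their median was 0.59 above that of all genes, with 14 of 15 on the upper side. Their summed level was 5252 to 19599 CPM in the chemokine-high LCs (median 15204) and 6336 to 14112 in the chemokine-low LCs (median 8789.6), higher in 11 of 12 mice. Hspa1a, an inducible chaperone of the HSP70 family, stood between 398 and 6088 CPM in the chemokine-high LCs of the 12 mice (median 3492) and between 649 and 3225 in their chemokine-low LCs (median 1104). Its difference of 1.32 ± 0.12 (SE), adjusted p = 7.55e-12, was that with the lowest adjusted p of all genes tested. It was lower in the chemokine-high LCs of 1 mouse, male HFD replicate 2, at 398 CPM from 6 cells. Hspa1b, its near-identical neighbour on chromosome 17, moved by 1.33 ± 0.13 (SE), adjusted p = 9.82e-11. Reads of the pair may have been shared out between them, so they are best taken as 1 measure.

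The other chaperones that rose work with HSP70 or HSP90. Hsph1, the HSP110 exchange factor, stood at 0 to 843 (median 332) CPM in chemokine-high and 35.8 to 342 (median 74.2) in chemokine-low LCs. Its difference was 1.69 ± 0.21 (SE), adjusted p = 1.27e-07. Hsp90aa1, the inducible HSP90, rose by 0.85 ± 0.12 (SE), adjusted p = 0.000136, and was higher in 11 of 12 mice. Dnajb1, an HSP40 that feeds clients to HSP70, rose by 1.10 ± 0.21 (SE), adjusted p = 0.00364. Hspa8, the constitutive HSP70, rose least, by 0.59 ± 0.10 (SE), adjusted p = 0.0136, but was higher in 12 of 12 mice, and its call was lost without male RD replicate 1 (0.53), 2 (0.53) or 3 (0.54).

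The stretch before the start of some of these genes is shown because Hspa1a and Hspa1b, among the risen chaperones, carry the letters of the element that the heat shock factor binds. The same letters were not found in the windows of Hsph1 and Dnajb1. Sequences are from RefSeq on GRCm38, from 250 to 51 bases before the annotated start, 5′ to 3′ on the strand of the gene. Capitals mark the heat shock element GAANNTTC in Hspa1a (chr17:34972207-34972406, minus strand) and Hspa1b (chr17:34959289-34959488, minus strand), where it begins 104 bases before the start, a kappa B site, in which any base may follow the first A, in Cxcl2 (chr5:90903649-90903848, plus strand), an AP-1 site TGANTCA in Cxcl10 (chr5:92348940-92349139, minus strand) and a cAMP response element TGACGTCA in Dusp1 (chr17:26508523-26508722, minus strand). Ccl3 (chr11:83649429-83649628, minus strand) is shown as a gene of the rule and has none of these letters in the window.
Hspa1a: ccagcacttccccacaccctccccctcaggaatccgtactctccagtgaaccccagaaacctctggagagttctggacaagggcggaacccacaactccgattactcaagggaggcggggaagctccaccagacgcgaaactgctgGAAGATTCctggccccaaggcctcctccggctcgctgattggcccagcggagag
Hspa1b: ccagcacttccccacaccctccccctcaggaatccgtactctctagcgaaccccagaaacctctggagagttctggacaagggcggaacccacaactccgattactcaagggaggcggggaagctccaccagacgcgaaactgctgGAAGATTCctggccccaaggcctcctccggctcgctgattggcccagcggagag
Cxcl2: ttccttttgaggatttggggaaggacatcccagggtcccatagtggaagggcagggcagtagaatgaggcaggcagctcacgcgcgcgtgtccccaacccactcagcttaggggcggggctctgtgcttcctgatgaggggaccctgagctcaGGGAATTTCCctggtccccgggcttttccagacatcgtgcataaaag
Cxcl10: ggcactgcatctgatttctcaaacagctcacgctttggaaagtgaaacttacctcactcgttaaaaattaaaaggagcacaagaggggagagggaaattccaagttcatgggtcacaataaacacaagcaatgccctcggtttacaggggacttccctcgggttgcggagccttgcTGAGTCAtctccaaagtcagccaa
Dusp1: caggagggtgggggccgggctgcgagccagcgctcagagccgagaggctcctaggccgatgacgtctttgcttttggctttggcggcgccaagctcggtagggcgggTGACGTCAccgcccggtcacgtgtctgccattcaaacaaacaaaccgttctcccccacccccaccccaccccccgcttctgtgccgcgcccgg
Ccl3: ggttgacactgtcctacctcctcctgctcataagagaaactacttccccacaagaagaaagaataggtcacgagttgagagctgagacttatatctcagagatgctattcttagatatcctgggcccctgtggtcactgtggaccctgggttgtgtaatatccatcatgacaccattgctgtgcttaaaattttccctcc
The 250 bases of Hspa1a and Hspa1b were the same at 247 places (98.8%). Both strands were searched over the 250 bases before each start, and matches of different motifs may overlap. The heat shock element occurred in 6.69% of all 32851 promoters in the table, the AP-1 site in 6.75%, the cAMP response element in 1.55% and the kappa B site in 0.356%. Of the 38 genes that rose, 31 were in the table, and 5 of these had the heat shock element in at least 1 of their starts (Hspa1a, Hspa1b, Jun, Nfkbid and Zeb2), 4 the cAMP response element, 3 the AP-1 site and 1 the kappa B site. The 31 genes had 50 promoters in the table, so these counts per gene and the shares per promoter are not alike. Hspa1a and Hspa1b, nearly identical here, are each counted. A match is a run of letters only and does not show that a factor binds.

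Immediate-early genes, which are transcribed within minutes of a stimulus without new protein synthesis, gave the largest number of risen genes, on the longest of the lists. Of 35 on the list 33 were tested and 9 rose, where 0.597% of all genes tested rose. None fell in both scalings, and 25 lay above the median of all genes, with a list median of 0.43. The summed level was higher in the chemokine-high LCs of 12 of 12 mice, at 16757 to 33839 against 13435 to 20592 CPM. Atf3, a stress-induced transcription factor, stood between 112 and 3797 CPM in the chemokine-high LCs of the 12 mice (median 1514) and between 138 and 1679 in their chemokine-low LCs (median 658). It rose by 1.42 ± 0.16 (SE), adjusted p = 4.4e-08, and was higher in 11 of 12 mice, all but female HFD replicate 3. Among the 3 mice of the planned comparison it had the lowest adjusted p of the genes described here, 4.85e-10 in edgeR. Klf6, a zinc finger factor, stood between 225 and 1349 CPM in the chemokine-high LCs of the 12 mice (median 552) and between 157 and 503 in their chemokine-low LCs (median 275). It rose by 1.17 ± 0.16 (SE), adjusted p = 2.44e-05, and was higher in 12 of 12 mice.

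Among subunits of the AP-1 factor, Jun and Fos rose and Junb did not pass. Jun rose by 1.03 ± 0.14 (SE), adjusted p = 2.87e-05, and Fos by 0.66 ± 0.11 (SE), adjusted p = 0.00453, while Junb had a difference of 0.32 ± 0.11 (SE), adjusted p = 0.672. The call of Fos was lost without male RD replicate 1 (0.57) or 3 (0.64). Every male mouse had more Jun in its chemokine-high LCs than every female mouse, and the level in chemokine-high LCs was 2335 ± 854 CPM in male RD, 1834 ± 585 in male HFD, 635 ± 408 in female RD and 359 ± 214 in female HFD mice (mean ± SD, n = 3 mice). That gap between the sexes cannot be told apart from counting software. The difference between the classes was 0.93 in males alone and 1.16 in females alone.

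Dusp1, a phosphatase of MAP kinases, stood at 309 to 1874 (median 608) CPM in chemokine-high and 196 to 539 (median 306) in chemokine-low LCs, and rose by 1.18 ± 0.16 (SE), adjusted p = 8.26e-06. Ppp1r15a (GADD34), which turns off the integrated stress response, rose by 1.00 ± 0.18 (SE), adjusted p = 0.0033. Nr4a1, an orphan nuclear receptor, rose by 0.77 ± 0.17 (SE), adjusted p = 0.0336. All 3 were higher in 11 of 12 mice, but the call of Nr4a1 was lost when any of 6 single mice was left out (0.63 at the lowest, without female RD replicate 3). Klf2 rose by 1.70 ± 0.23 (SE), adjusted p = 1.63e-06, with 11 of 12 mice higher, and Egr2 by 2.37 ± 0.58 (SE), adjusted p = 0.017, on only 18 UMIs and 7 of 12 mice, a call that was lost without male HFD replicate 3 (1.82) or female HFD replicate 2 (2.10). Only 2.03% of the chemokine-low LCs held an Egr2 UMI. A gene seen mainly in the 93 cells could enter the test only if it was high there, so the call of Egr2 is not independent of the filter. Egr1 (0.73 ± 0.17 (SE), adjusted p = 0.0577) and Ier3 (0.68 ± 0.15 (SE), adjusted p = 0.0533) did not pass with TMM, although both passed with DESeq2's size factors.

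**Figure D4:**
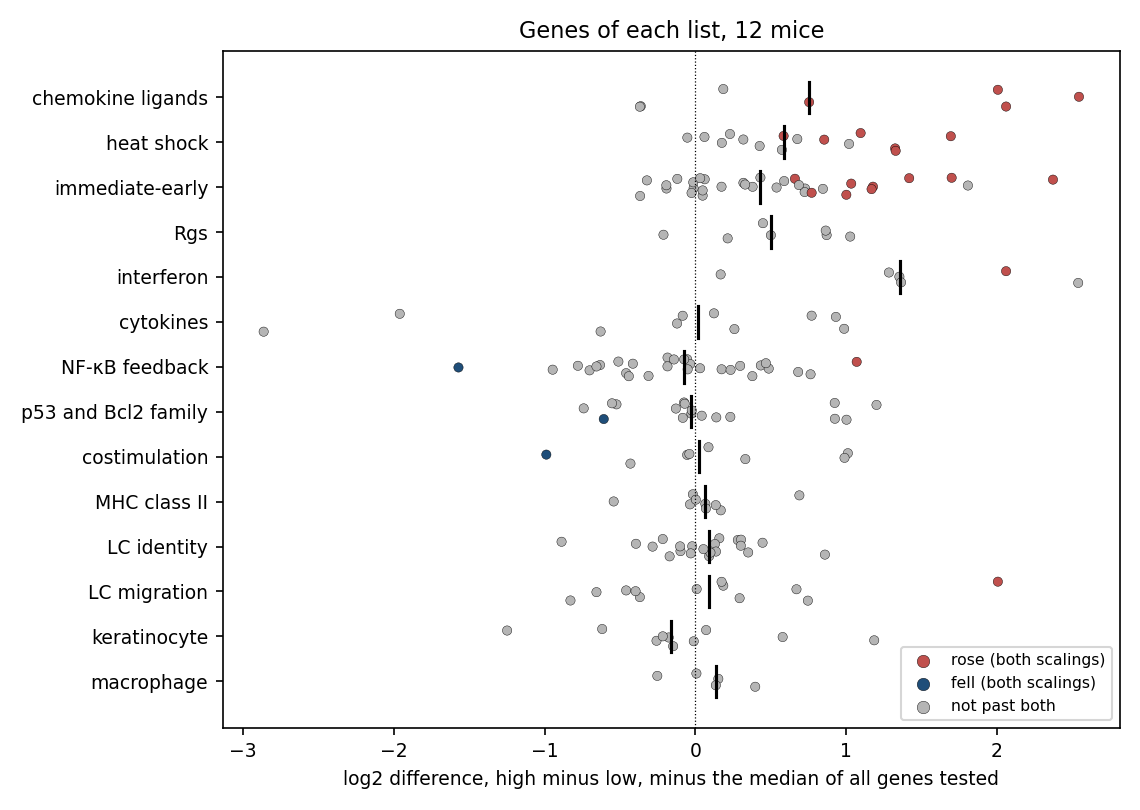
Each point is a tested gene of the list named at left, and the x axis is its log2 difference (chemokine-high minus chemokine-low, 12 mice) after subtraction of the median of all 6361 genes tested. Red genes rose and blue genes fell in both scalings, grey genes did not, and the bar is the median of the list; the bar is at 0.59 for heat shock, at 0.43 for immediate-early genes and within 0.1 of 0 for the NF-κB, MHC class II and LC identity lists.

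Of 30 targets and feedback regulators of NF-κB 29 were tested, 1 rose and 1 fell, and their median was -0.07 relative to all genes. Nfkbid, a nuclear IκB protein, rose by 1.07 ± 0.25 (SE), adjusted p = 0.0278, a call that was lost when any of 5 single mice was left out (0.89 at the lowest, without female RD replicate 2). Nfkb2, the precursor of the noncanonical subunit p52, fell: it had 0 to 61.9 (median 22.6) CPM in chemokine-high and 50.4 to 96.3 (median 68) in chemokine-low LCs, was lower in 12 of 12 mice and moved by -1.57 ± 0.37 (SE), adjusted p = 0.00104. The call of Nfkb2 was lost in DESeq2 (adjusted p = 0.056), in males alone and in females alone. Tnip1, a partner of the ubiquitin editor A20, had -0.63 ± 0.23 (SE), adjusted p = 0.0191, and did not pass with DESeq2's size factors.

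The label gene Pmaip1 belongs to the targets of p53 and the Bcl2 family. Of 27 further such genes 17 were tested, none rose and 1 fell, and the median was -0.03. The gene that fell was Cdkn1a, the p53 target that codes for the cell cycle inhibitor p21, with 529.7 ± 277 against 791 ± 163 CPM (mean ± SD, n = 12), and a difference of -0.61 ± 0.15 (SE), adjusted p = 0.000113. It was lower in 10 of 12 mice, and its call was lost in DESeq2 (adjusted p = 0.0836). Of the other Rgs genes 7 were tested and none passed both scalings. Their median was 0.50, 6 of 7 lay above the median of all genes, and Rgs2 had 0.50 ± 0.12 (SE), adjusted p = 0.167.

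Of 11 MHC class II genes 9 were tested, and none rose or fell in both scalings, although 2 passed as lower with TMM alone. Their summed level was 29844 to 40546 CPM in the chemokine-high LCs (median 34031) and 31502 to 39507 in the chemokine-low LCs (median 33886), higher in 5 of 12 mice. Of 23 genes of LC identity 21 were tested, none passed both scalings, 2 passed as lower with TMM alone, and the median was 0.09. Of 14 costimulation genes 8 were tested, none rose, and Cd80, a ligand of Cd28 on T cells, fell. Cd80 stood at 0 to 195 (median 76.7) CPM in chemokine-high and 82.3 to 379 (median 137) in chemokine-low LCs, was lower in 12 of 12 mice, and moved by -0.99 ± 0.23 (SE), adjusted p = 0.000306.

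Of 20 genes of LC migration 12 were tested, with a median of 0.09, and Ccl17 alone rose, under the limit of the filter given for it above. Of 27 interferon-induced genes only 6 passed the filter, and Cxcl10 alone rose. The median of the 6 was 1.36 and all 6 lay above the median of all genes, but here too a gene seen mainly in the 93 cells could enter only if it was high there, and the summed level of the list was higher in the chemokine-high LCs of 7 of 12 mice. Of the 25 interferon-induced genes in the files 12 had no UMI in the 93 cells. Of 15 genes that the study itself had picked for its LCs on these samples, 13 were tested and Ccl2 alone rose, with a median of -0.12, and since that list was chosen on the same libraries it is no independent evidence.

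The genes lower in every mouse with the largest differences were Plcd3 (-2.03), Il21r (-1.90), Scin (-1.59), Nfkb2, Rmnd5a (-1.30), Cenpa (-1.19), Rnf169 (-1.16), Orai1 (-1.16), Cd80 and Slc25a33 (-0.98). Plcd3 and Il21r rest on 6 and 7 UMIs in the 93 cells. The calls of Plcd3, Il21r, Nfkb2, Cenpa and Rnf169 were lost in DESeq2. Scin, an actin-severing protein, was the strongest of them by the test, at -1.59 ± 0.21 (SE), adjusted p = 1.22e-09. Every male mouse was below every female mouse for Scin: the chemokine-high LCs held 69, 0 and 20.6 CPM in male RD, 0, 36.2 and 0 in male HFD, 193, 635 and 633 in female RD and 398, 92.2 and 140.4 in female HFD mice, and in each of them the chemokine-low LCs held more. Orai1, the pore of the store-operated calcium channel, moved by -1.16 ± 0.28 (SE), adjusted p = 0.000627. Genes chosen after their values were seen include Hcar2, the receptor for nicotinic acid and β-hydroxybutyrate, which rose by 1.54 ± 0.23 (SE), adjusted p = 2.87e-05, with 11 of 12 mice higher, and Kdm2b, a histone demethylase, which fell, with a difference of -0.93 ± 0.15 (SE), adjusted p = 4.4e-08, in 12 of 12 mice. Cyld, a deubiquitinase that restrains NF-κB, fell with a difference of -0.94 ± 0.21 (SE), adjusted p = 0.000136, and Fth1, the ferritin heavy chain, with one of -0.35 ± 0.08 (SE), adjusted p = 9.88e-08 before subtraction of the median, and 0.00126 with DESeq2's size factors. The call of Fth1 was lost in DESeq2 itself (adjusted p = 0.0835). Spp1 (osteopontin) rose by 2.41 ± 0.42 (SE), adjusted p = 0.000226, yet was higher in only 6 of 12 mice, and female RD replicates 1 and 3 held most of it (964, 32.5 and 717 CPM in the 3 female RD mice). The call of Spp1 was lost without female RD replicate 1 (1.56), in males alone, and in DESeq2 (1.06, adjusted p = 0.722).

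Markers of T cells, neutrophils, melanocytes, Merkel cells, stroma and mast cells were low in the chemokine-high LCs, and those of macrophages and keratinocytes were present in both classes. The summed level of 11 T cell markers was at most 46 CPM in any mouse (chemokine-low at most 10.3), with 9 of the 11 at 0, Cd3e and Trdc among them. That of 5 neutrophil markers was at most 23, with S100a8 and S100a9 at 0, that of 8 melanocyte and Merkel cell markers at most 28.1 with 7 at 0, that of 5 stromal markers at most 22.1 with 4 at 0, and that of 5 mast cell markers at most 109 with 4 at 0. The 10 macrophage markers summed to 253 to 1199 in chemokine-high and 342 to 1142 in chemokine-low LCs, higher in 7 of 12 mice, with Mrc1 at 0. The 12 keratinocyte markers summed to 479.7 to 6961 and 531 to 4136, higher in 4 of 12 mice, and none of them passed in both scalings. In these lists 0, 0, 0, 0, 1, 5 and 10 genes could be tested and none rose or fell.

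Lor and Flg, genes of the cornified layer of keratinocytes, did pass, with differences of -1.38 ± 0.34 (SE), adjusted p = 0.00133, and -1.89 ± 0.38 (SE), adjusted p = 0.000116. One library carried the level of Lor: the chemokine-high LCs held 253, 12959 and 454 CPM in the 3 male RD mice. The gate did not use Lor or Flg, and how these UMIs were spread over the 10 chemokine-high LCs of male RD replicate 2 was not examined. The same library was the highest for Flg, with 23, 1764 and 61.9 CPM in those mice, and the difference of Flg ran from -3.41 without male RD replicate 2 to -1.32 without male HFD replicate 1. The calls of both genes were lost in DESeq2 and in thinned cells. Lor turned to 1.59 when the chemokine-low cells were drawn to the number of chemokine-high cells, so no direction is given for it.

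The share of chemokine-high among gated LCs was compared between the diets by mouse. It was 6.25%, 3.33% and 8.74% in male RD mice (6.11 ± 2.71%, mean ± SD, n = 3) and 6.31%, 4.69% and 4.69% in male HFD mice (5.23 ± 0.935%). The ranges overlapped, and the difference of -0.88 percentage points gave p = 0.7 (exact two-sided permutation test, n = 3 per group, smallest possible p 0.1). It ran from -2.27 without male RD replicate 2 to 0.44 without male RD replicate 3, where its sign turned. In females the share was 3.24%, 4.83% and 2.19% on RD (3.42 ± 1.33%) and 1.58%, 3.46% and 2.53% on HFD (2.52 ± 0.94%), a difference of -0.897 with p = 0.5 in the same exact test, which ran from -1.51 without female RD replicate 3 to -0.19 without female RD replicate 2. Over both sexes, with diets exchanged within each sex, the difference was -0.888 percentage points (exact permutation p = 0.375, smallest possible 0.005), with -1.58 without male RD replicate 2 and -0.23 without male RD replicate 3 as the extremes. Each share rests on 5 to 11 cells, and their exact 95% binomial intervals were as wide as 4.07 to 15.9% in male RD replicate 3.

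The level of Ccl3 plus Ccl4 over all gated LCs uses no threshold. It was 254 ± 52.7 CPM in male RD and 190.4 ± 91.9 in male HFD mice (exact permutation p = 0.4, n = 3 per group), and 109 ± 32.3 in female RD and 74.7 ± 23.1 in female HFD mice (exact permutation p = 0.3, n = 3 per group). The diets overlapped in both sexes, and neither test could go below 0.1. With single mice left out, the difference in males ran from -115 CPM without male HFD replicate 1 to -26.1 without male HFD replicate 2, and in females from -52.4 without female RD replicate 3 to -20.8 without female RD replicate 2.

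Males had a larger share than females, 5.67 ± 1.87% against 2.97 ± 1.14% (n = 6 mice each), a difference of 2.70 percentage points with p = 0.0195 in an exact two-sided permutation test. The lowest male mouse, at 3.33%, lay below 2 female mice. Depth went with sex, as the median UMIs of chemokine-high LCs were 2890.5 to 5703 in male and 5904.5 to 7816 in female mice. With each cell thinned to 2000 UMIs and a threshold of 2 UMIs, leaving out 45 shallower male and 44 female cells, the shares were 7.25 ± 2.12% and 2.95 ± 1.32% (exact permutation p = 0.00433, n = 6 each), while with a threshold of 10 UMIs the difference was 1.34 points (exact permutation p = 0.117, n = 6 each). A threshold of 1000 CPM gave 3.15 points (exact permutation p = 0.00216, the smallest this design allows). All male libraries were counted with one software version and all female libraries with the other, so this difference cannot be told apart from counting.

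**Figure D5:**
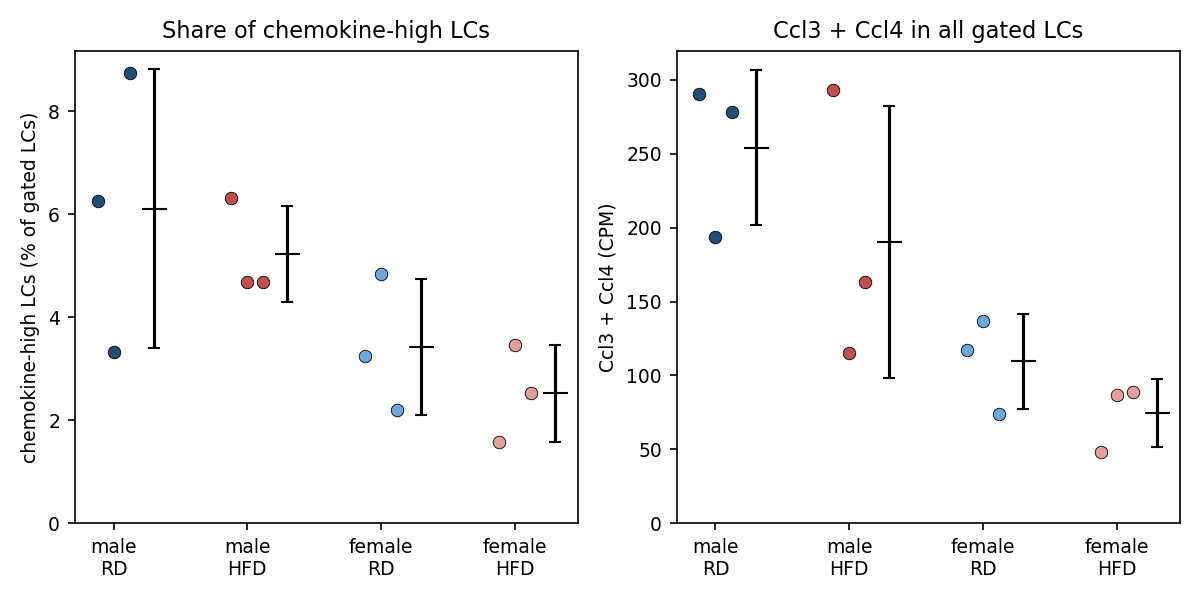
Left, the share of chemokine-high LCs among gated LCs, and right, Ccl3 plus Ccl4 CPM over all gated LCs, 1 point per mouse with the mean and SD of 3 mice beside them. The diets overlap in each sex, and shares ran from 3.33 to 8.74% in the male and from 1.58 to 4.83% in the female mice.

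Diet effects on genes within the chemokine-high LCs were tested over mice with at least 5 such cells, which were all 12. In males 0 of 471 genes (0%) passed an adjusted p of 0.05 in edgeR, with 27 under an unadjusted 0.05, 0 with DESeq2's size factors and 2 passing in DESeq2, mt-Cytb and Gm42418, both higher on HFD and named after their values were seen. The median share of mitochondrial UMIs in chemokine-high LCs moved with diet in males, at 1.77%, 2.23% and 1.69% on RD and 2.82%, 2.70% and 3.06% on HFD. In male chemokine-low LCs it was 2.23 to 2.29% on RD and 2.86 to 3.03% on HFD. Female chemokine-low LCs moved the same way, from 1.16 to 1.28% on RD to 1.49 to 1.64% on HFD. In female chemokine-high LCs the diets overlapped, at 1.01%, 1.40% and 1.16% on RD and 1.81%, 1.67% and 1.32% on HFD. The part of this in the call of mt-Cytb was not tested. In females 0 of 869 (0%) passed, with 55 under an unadjusted 0.05 and 1 passing in DESeq2, Il1b, at -2.10 on the log2 scale. The interaction of diet and sex gave 0 of 910 (0%), with 34 under an unadjusted 0.05 and 0 in DESeq2. Single chemokines had wide errors. The difference of Cxcl2, HFD minus RD, was -0.57 ± 0.27 (SE), adjusted p = 0.811 in males and -0.63 ± 0.46 (SE), adjusted p = 0.902 in females (log2, edgeR), and Ccl2 had -0.06 ± 0.87 (SE), adjusted p = 0.991 in males. Hspa1a had -0.02 ± 0.53 (SE), adjusted p = 0.991 and 0.32 ± 0.23 (SE), adjusted p = 0.89.

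A last comparison asked whether the difference between the classes depended on diet. In edgeR 39 of 6371 genes passed (0.612%), all with a chemokine-high minus chemokine-low difference that was lower in HFD than in RD mice, but with DESeq2's size factors 22 passed (0.345%) and in DESeq2 itself only 1 (0.0157%), Il1b. The level of Il1b in chemokine-high LCs was 483, 802 and 372 CPM in male RD, 0, 398 and 387 in male HFD, 482, 862 and 1581 in female RD and 221, 166 and 309 in female HFD mice. In chemokine-low LCs it was 290.1, 627 and 285, 598, 489.9 and 605, 98.6, 79.5 and 79 and 132, 196 and 173 in the same order. Every RD mouse had more Il1b in its chemokine-high LCs, whereas all 3 male HFD mice and female HFD replicate 2 had less. The interaction for Il1b was -2.58 ± 0.33 (SE), adjusted p = 1.22e-10 in edgeR, and -2.49, adjusted p = 0.0368 in DESeq2. The SE given with edgeR is derived from its test statistic and is not the spread among mice. Only 19 of the 93 chemokine-high LCs held an Il1b UMI. Of the 39 genes 10 belonged to the lists described here, the keratinocyte marker Calm4 among them, and 12 were Lce1 or Lce3 genes of the keratinocyte envelope. Lor and Flg passed too, as did Hrnr, Crct1 and Asprv1, further genes of the cornified layer named after their values were seen. Genes of keratinocytes thus made up a large part of the 39. Without male RD replicate 2, 17 genes passed in edgeR. The part of keratinocyte transcripts in these calls was not tested. For none of the 39 did all HFD mice lie below all RD mice in the chemokine-high LCs.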

How the data were processed

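Per the labels and file headers, the authors made UMI counts per gene and barcode with Cell Ranger (6.1.0 in the headers of the male files, 7.2.0 in those of the female files; the labels name 7.2.0) against mm10 (GRCm38), and deposited them as counts without normalization or filter on genes or mitochondrial UMIs. The barcodes and gene names came with them. Results for some genes are not reported here. Whether introns were counted is not given in the sources used here. The cells were chosen by the rule that opens the report, and counts were summed per mouse and class. The members and all gene lists were chosen with earlier results of these data known. Sums were tested with edgeR 4.0.16 (TMM, filterByExpr, quasi-likelihood, Benjamini-Hochberg at 0.05; R 4.3.3), with the mouse as a term for chemokine-high against chemokine-low LCs, which come from the same library. DESeq2 1.42.0, its size factors, other thresholds, thinned cells and each mouse left out were alternatives, and library sizes without TMM and chemokine-low cells drawn to the number of chemokine-high cells were added after seeing the data. The planned minimum of 10 cells per mouse and class left 3 mice, so a minimum of 5 was added after the counts were seen, and all diet fits use it. Levels (CPM) are the UMIs of a gene per 1000000 summed UMIs of that mouse and class. Shares and levels were compared by exact permutation tests. Named genes are the rule's genes, members of the lists, and per comparison the 10 largest rises and falls past the threshold with 1 sign in every mouse; others are named as chosen after their values were seen. Scripts were tested on simulated counts. Each replicate is a separate mouse.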

Additional observations from a re-analysis of the deposited data

Results flagged for a closer look

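The difference between chemokine-high and chemokine-low LCs depended on diet in 39 genes by a test of the interaction itself (edgeR, adjusted p under 0.05), and in each of the 39 the chemokine-high minus chemokine-low difference was lower in HFD than in RD mice. Among the genes described in the report, the interaction on the log2 scale was -2.58 for Il1b, -1.17 for Atf3, -0.69 for Cxcl2, -5.18 for Ccl17, -3.10 for Spp1, -1.05 for Egr1, -0.74 for Junb, -0.69 for Hspa8 and -1.35 for Dnajb1. Btg2, a member of the immediate-early list not described above, had -0.88. For Lor and Flg, the cornified layer genes, the interaction was -2.65 and -3.67, and for the keratinocyte marker Calm4 it was -1.98. Hrnr (-4.49), Crct1 (-3.20) and 12 Lce1 or Lce3 genes passed too, so genes of keratinocytes made up a large part of the 39.

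Il1b passed under each alternative that was run, DESeq2 included (adjusted p = 0.0368), with values between -2.90 and -2.27 when single mice were left out. Atf3 passed under each of them except DESeq2 (-1.19). Its levels in chemokine-high LCs were 3681, 2021 and 1796 CPM in male RD, 3797, 1232 and 1894 in male HFD, 1044, 895 and 1982 in female RD and 420.0, 756 and 112 in female HFD mice. Lor and Flg rested on male RD replicate 2, without which the values were -0.89 (adjusted p = 0.722) and -1.06 (adjusted p = 0.997, edgeR), and the whole count fell to 17. Ccl17 lost its call in DESeq2 and in thinned cells and ran from -9.00 to -4.53 without single mice, the lowest without female HFD replicate 3, the 1 HFD mouse with a Ccl17 UMI in its chemokine-high LCs. Spp1 lost its call in DESeq2, in thinned cells and without female RD replicate 1 (-2.22), female RD replicate 3 (-2.49) or female HFD replicate 1 (-2.69). Cxcl2 lost it without male HFD replicate 3 (-0.44) and 3 other single mice, Btg2 without 3, and Dnajb1, Egr1, Hspa8 and Junb without 7 or 8 single mice each. Each HFD mouse gave 5 to 8 chemokine-high LCs and each RD mouse 8 to 11, and the part of that in these differences was not tested.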

How the results depend on the processing

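Of 49 named genes tested between chemokine-high and chemokine-low LCs over 12 mice, 45 kept their sign in each alternative, and of 1301 values of single genes 1109 kept their sign and their side of the threshold, 132 fell short of it, 50 newly passed and 10 changed sign. The sign changed for Ccl22 in DESeq2 (-0.069), with a threshold of 1000 CPM (-0.11), in males alone (-1.19) and when single mice were left out (-0.15 to 0.34), for Cxcl1 with chemokine-low cells drawn to the number of chemokine-high cells (0.15) and in males alone (0.025), for Il1b in males alone (-0.27), and for Lor in thinned cells (0.043) and with drawn cells (1.59).

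The count of genes over 12 mice, 234, was 127 with DESeq2's size factors, 63 in DESeq2, 1292 with no filter on low counts, 6 with no replicate block (the mouse left out of the model), 558 in thinned cells, 152 with a threshold of 3 UMIs, 144 with one of 10 UMIs in 6 mice, 368 against cells with no chemokine UMI, 137 with library sizes without TMM, 87 in males alone and 152 to 374 when single mice were left out (152 without male HFD replicate 3, 374 without male RD replicate 2). With thinned cells 21 were higher and 537 lower, and with drawn cells 32 and 18. Among others, the risen genes Cxcl2, Cxcl10, Fos, Hspa8 and Dusp1 lost their calls in females alone. Hsph1, Dnajb1, Nr4a1 and Hcar2, among others, lost theirs in males alone. The 47 genes of the 3 mice became 8 in DESeq2, 21 with no filter, 0 with no replicate block, 82 with a threshold of 3 UMIs, by which 10 mice entered, 2 with 1000 CPM in 2 mice, 11 with drawn cells, 0 in males alone and 0 to 50 without single mice (0 without female RD replicate 2). With no filter genes at or near 0 enter, and the settings with other numbers of mice rest on fewer or more samples. The cause of the other changes was not tested. A threshold of 10 UMIs and females alone could not be fitted in the 3 mice.

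The diet counts of 0 became 2 in DESeq2, 24 with no filter, 1 with a replicate block and 0 to 2 without single mice in males, 1, 7 and 0 to 1 in females (DESeq2, no filter, single mice), and 1 with no filter and 0 to 1 without single mice for the diet by sex interaction. The 39 genes of the diet by class interaction became 22 with DESeq2's size factors, 1 in DESeq2, 11 in thinned cells and 17 to 46 without single mice (17 without male RD replicate 2). The difference in share between males and females was 1.34 points with a threshold of 10 UMIs (exact permutation p = 0.117, n = 6) and passed in each other alternative run. The diet difference in males ran from -2.27 to 0.44 without single mice, positive only without male RD replicate 3.

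Replicate numbers do not mark shared animals, and deviations of same-numbered mice correlated by 0.05 to 0.16 in males and -0.36 to 0.14 in females, so the numbers were not taken as a pairing. With the replicate block the diet differences in share gave an exact permutation p of 1 in males, 0.5 in females and 0.406 over both sexes (n = 3 per group), and those in level 0.5 in each sex. The 93 cells, at 5 to 11 per mouse, limit the precision of every value.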
